A study of Homo sapiens with 8 samples.

Results

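Followed here are 10 long noncoding RNAs named in prostate cancer, measured in C4-2 cells treated with DTHIB: PCAT7, PCAT6, SCHLAP1, PVT1, PCAT1, DRAIC, PCA3, PCAT14, ARLNC1 and PCGEM1. They were chosen by name, as the rows of the normalized count table whose Ensembl identifier carries one of these symbols, and all 10 were found among 58884 genes. C4-2 is an established human prostate cancer line, labelled as castration-resistant, which derives from LNCaP. The 4 DTHIB libraries came from C4-2 cells given 1 µM of the compound for 48 h, and the 4 DMSO libraries from C4-2 cells given the solvent for the same time. DTHIB, also called E12, is labelled as an inhibitor that acts on HSF1 directly. HSF1 is a transcription factor that switches on chaperone genes when proteins misfold. All libraries were poly(A)-enriched, so a transcript without a poly(A) tail is poorly captured. The labels number the replicates without saying whether they were separate cultures, so the p-values measure the spread between these libraries, which may be technical. A single cell line, dose and time were measured, and no sample used here lacks HSF1 by deletion.

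Long noncoding RNAs (lncRNAs) are long transcripts that do not code for a protein. Many stay in the nucleus and act on chromatin or on neighbouring genes, and others bind proteins or messenger RNAs in the cytoplasm. In prostate tissue this class is known for transcripts of narrow tissue range, several of them controlled by the androgen receptor, and PCA3 is measured in urine as a test for the cancer. PCAT1 is known as a repressor of BRCA2, PCAT6 as a transcript that starts beside KDM5B, and PVT1 as the neighbour and partner of MYC. SCHLAP1 is known to oppose the SWI/SNF chromatin remodeller, DRAIC to hold back invasion and NF-κB signalling, and ARLNC1 to stabilize the androgen receptor messenger RNA.

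The sequences at the starts of PCAT6, PCAT7 and DRAIC, the 3 lncRNAs that changed and have a promoter in the table used, are shown first, because they are where motifs for HSF1, the androgen receptor and other factors would be looked for. RefSeq promoters of 300 bases (250 before and 50 after the start, GRCh38.p14, plus strand) were found for 5 of the 10 lncRNAs, PCAT6, PCAT7, DRAIC, PCA3 and PCGEM1. The motifs searched on both strands were GAANNTTC (the core of a heat shock element), AGAACA (a half-site of the androgen response element), TGTTTAC (the forkhead core), TGATGNAA (the ATF4 core), CACGTG (the E-box) and CCAAT (the CCAAT box). Capitals mark every match, in either orientation. The lines give PCAT6 at chr1:202810704-202811003, PCAT7 at chr9:94554833-94555132 and DRAIC at chr15:69561470-69561769.
PCAT6 promoter: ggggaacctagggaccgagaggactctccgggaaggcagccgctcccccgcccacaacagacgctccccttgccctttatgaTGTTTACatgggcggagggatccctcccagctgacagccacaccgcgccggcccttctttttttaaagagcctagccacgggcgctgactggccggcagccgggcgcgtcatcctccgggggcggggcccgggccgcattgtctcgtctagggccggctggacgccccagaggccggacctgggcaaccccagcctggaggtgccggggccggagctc
PCAT7 promoter: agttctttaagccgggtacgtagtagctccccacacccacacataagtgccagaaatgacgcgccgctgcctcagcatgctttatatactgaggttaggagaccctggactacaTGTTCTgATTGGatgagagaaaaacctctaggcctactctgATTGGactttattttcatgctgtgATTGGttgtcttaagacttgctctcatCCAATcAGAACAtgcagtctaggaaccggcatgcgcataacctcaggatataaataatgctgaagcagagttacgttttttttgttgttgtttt
DRAIC promoter: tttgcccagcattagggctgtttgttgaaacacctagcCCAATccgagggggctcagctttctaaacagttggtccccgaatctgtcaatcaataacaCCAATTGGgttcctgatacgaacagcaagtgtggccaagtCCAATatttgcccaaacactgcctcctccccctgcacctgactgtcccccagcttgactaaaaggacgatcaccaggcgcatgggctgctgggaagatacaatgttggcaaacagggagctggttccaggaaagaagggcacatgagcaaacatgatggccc
The PCAT6 promoter held 1 TGTTTAC, 168 bases upstream of the start, a motif present in 3.42% of the 35116 promoters in the table. This PCAT7 promoter, one of 2 starts listed for the gene, held 4 CCAAT matches and 2 AGAACA matches. The androgen half-sites lay 136 and 38 bases upstream, and no match overlapped another. The other PCAT7 start, at chr9:94554349-94554648, where the RefSeq gene begins, held 1 CCAAT and no other match. DRAIC also held 4 CCAAT matches, of which 2 overlap in the run CCAATTGG. The DRAIC window is that of the RefSeq start, 69561720, and lies inside the longer gene model used below for its length, which begins at 69463026. At least 4 CCAAT matches occurred in 0.991% of all promoters, a single CCAAT match or more in 34.6%, and AGAACA in 14.8%. Neither GAANNTTC (6.77% of all promoters), TGATGNAA (3.62%) nor CACGTG (7.26%) was found in the 3 windows. PCAT6 was rich in G and C, 69.7% against a median of 58.7% over all promoters, while DRAIC had 52.0% and PCAT7 44.0%. These matches are letters in a window and describe no binding.

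Of the 10 lncRNAs, 7 had a mean of at least 10 normalized counts over the 8 libraries and could be measured. A normalized count is the number of reads of a gene divided by a size factor of its library. The whole reads behind these values summed to between 27229291 and 29159387 per DTHIB library and between 29499458 and 30926053 per DMSO library, so every DTHIB library was shallower than every DMSO library before scaling, and the part of depth in the results was not tested. Together the 10 lncRNAs took 81.7 ± 3.62 RPM (reads scaled to a common library total) in DTHIB libraries and 68.9 ± 0.605 in DMSO libraries (SD, n = 4 each).

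**Figure D1:**
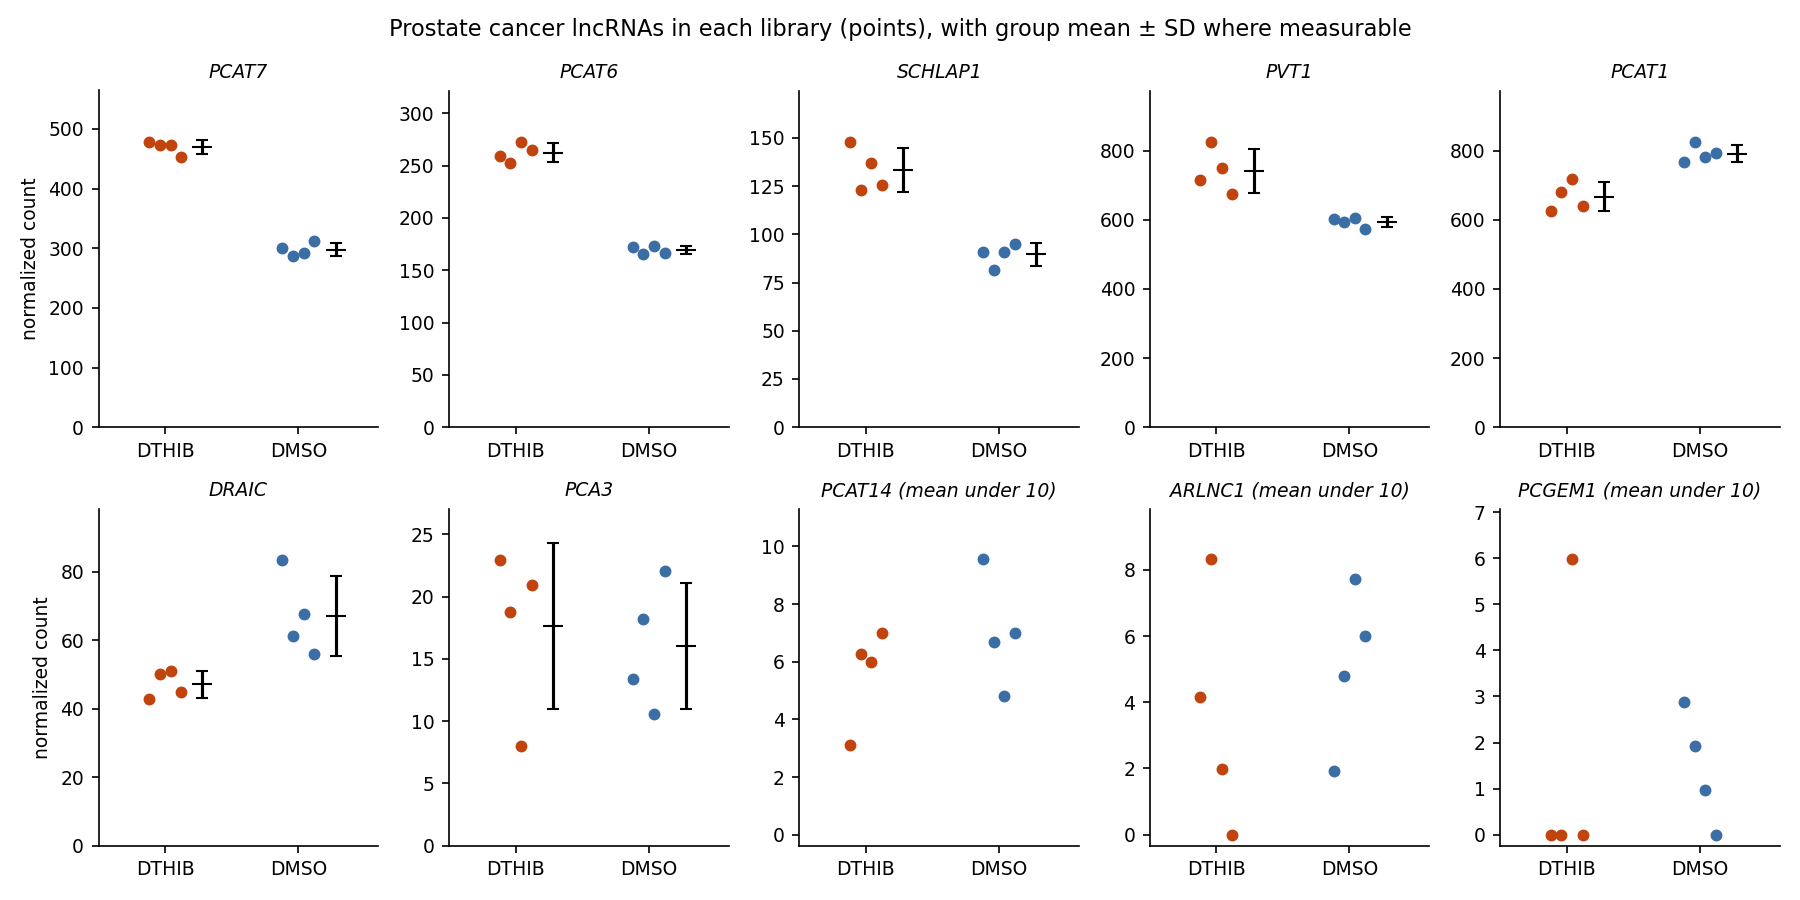
Normalized counts of the 10 lncRNAs in the 4 DTHIB libraries, left, and the 4 DMSO libraries, right, on linear axes that start at or just below 0; each point is a library, and the bar gives mean ± SD where the mean is at least 10. The groups lie apart for PCAT7, PCAT6, SCHLAP1, PVT1, PCAT1 and DRAIC and overlap for PCA3 and the 3 lncRNAs under 10.

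Per kilobase of merged exons, the scale on which genes can be set against each other, PCAT6 was highest at 295 ± 9.74 normalized counts per kilobase in DTHIB cells and 190 ± 4.30 in DMSO cells. PVT1 followed with 135 ± 11.7 in DTHIB and 108 ± 2.54 in DMSO, then SCHLAP1 with 92.9 ± 7.96 in DTHIB and 62.4 ± 4.07 in DMSO and PCAT7 with 79.5 ± 1.91 in DTHIB and 50.4 ± 1.87 in DMSO. PCAT1 had 39.6 ± 2.48 in DTHIB and 47.0 ± 1.47 in DMSO. DRAIC, with 2.55 ± 0.215 in DTHIB and 3.63 ± 0.640 in DMSO, and PCA3, with 1.25 ± 0.470 in DTHIB and 1.13 ± 0.358 in DMSO, were far lower (all SD, n = 4 each). The order of the 7 levels was the same in both groups. Neighbours in that order did not overlap between libraries except PCAT7 and PCAT1 in DMSO cells. These lengths depend on the gene model: GENCODE 29 gives PCAT1 a span of 862728 bases and DRAIC one of 380095, against 7861 and 9721 in RefSeq. For SCHLAP1 both give 224836. The sources used here do not name the annotation release behind the deposited counts.

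Under DTHIB, PCAT7, PCAT6, SCHLAP1 and PVT1 rose and PCAT1 and DRAIC fell, while PCA3 did not pass the test. The increases ran from 24.9% for PVT1 to 57.7% for PCAT7, and the decreases were smaller in PCAT1 than in DRAIC. The test was limma on log2(normalized count + 1) over 17194 genes, two-sided with Benjamini-Hochberg adjustment. By it 6 of the 7 measured lncRNAs changed, where 64.6% of all tested genes did (31.0% higher and 33.7% lower). Among the 2555 tested lncRNA genes 51.6% changed, 39.8% higher and 11.8% lower, and among tested protein-coding genes 69.2% did, 29.1% higher and 40.1% lower. The libraries of DTHIB and DMSO did not overlap in those 6, against 57.9% of all tested genes, 43.1% of lncRNA genes and 63.0% of protein-coding genes. The median log2 fold change was 0.32 over the 7, 0.28 over all tested lncRNA genes, -0.05 over protein-coding genes and -0.01 over all genes. No test of the 7 against either background was made. In bulk RNA, a different mix of cells and a different amount of RNA per cell cannot be told apart.

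**Figure D2:**
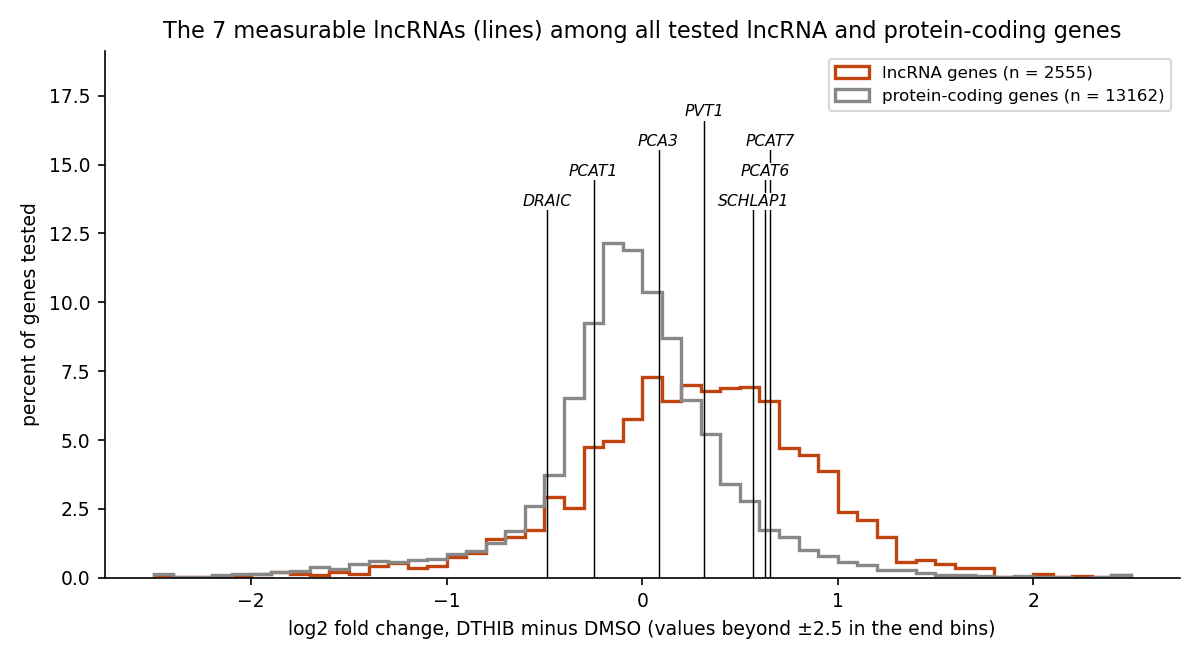
Percent of tested genes in bins of log2 fold change (DTHIB minus DMSO), for 2555 lncRNA genes and 13162 protein-coding genes, with a vertical line at each of the 7 measurable lncRNAs. The lncRNA genes are shifted to the right of the protein-coding genes, and all 7 lines fall inside the lncRNA distribution.

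PCAT7, a prostate cancer associated transcript of chromosome 9 (ENSG00000231806, 94555054 to 94603990, plus strand), rose most of the 7. It had 478.2, 473.2, 473.4 and 452.8 normalized counts in the DTHIB libraries, against 300.7, 286.1, 292.3 and 311.6 in the DMSO libraries. Every DTHIB library lay above every DMSO library, and the coefficient of variation, 2.41% in DTHIB and 3.71% in DMSO, was below the 4.66% in DTHIB and 5.71% in DMSO of counting alone. The means were 469 ± 11.3 in DTHIB and 298 ± 11.0 in DMSO (SD, n = 4 each), a log2 difference of 0.66 (SE 0.057, limma adjusted p = 2.38e-08). That is 1.58-fold, at percentile 75.8 of tested lncRNA genes.

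PCAT6 (ENSG00000228288), also listed as KDM5B antisense RNA, is a short transcript on chromosome 1 (202810954 to 202812156, plus strand). Its DTHIB libraries had 259.4, 252.2, 272.6 and 265.3 normalized counts, and its DMSO libraries 172.4, 165.6, 172.7 and 166.3. The groups did not overlap. The coefficient of variation was 3.31% in DTHIB and 2.26% in DMSO, below the 6.23% in DTHIB and 7.57% in DMSO that read counting alone gives on average, so the spread of these 4 libraries understates the error. PCAT6 averaged 262 ± 8.67 in DTHIB and 169 ± 3.82 in DMSO (SD, n = 4 each), a rise of 55.0% and 0.63 in log2 (SE 0.071, limma adjusted p = 6.77e-07).

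SCHLAP1 (ENSG00000281131, chromosome 2, 180692104 to 180916939, plus strand), the antagonist of SWI/SNF, had 148, 123, 136.8 and 125.7 normalized counts in DTHIB libraries and 90.98, 81.34, 90.69 and 95.19 in DMSO libraries. All 4 DTHIB values exceeded all 4 DMSO values. The means were 133 ± 11.4 in DTHIB and 89.6 ± 5.85 in DMSO (SD, n = 4 each), a log2 difference of 0.57 (SE 0.104, limma adjusted p = 0.000148). AC009478.1 shares 212 exon bases with it on the opposite strand, 14.8% of the SCHLAP1 transcript. The sources used here give no strand setting for the counting, so reads from the shared bases cannot be told apart.

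PVT1 (ENSG00000249859, chromosome 8, 127794533 to 128101253, plus strand), which lies downstream of MYC and hosts microRNAs, had 714.8, 825.5, 751 and 674.2 normalized counts in DTHIB libraries. Its DMSO libraries had 602.4, 592.4, 604.9 and 574.2. The DTHIB libraries were all higher and more spread, with a coefficient of variation of 8.67% in DTHIB against 2.35% in DMSO. PVT1 averaged 741 ± 64.2 in DTHIB and 593 ± 14.0 in DMSO (SD, n = 4 each), a log2 difference of 0.32 (SE 0.057, limma adjusted p = 0.000116). This lies at percentile 52.3 of tested lncRNA genes, close to their median.

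PCAT1 (ENSG00000253438, chromosome 8, 126556323 to 127419050, plus strand), the repressor of BRCA2, went the other way. It had 626.2, 681.6, 719.1 and 641.3 normalized counts in DTHIB libraries, against 768.1, 825.8, 781.5 and 792.6 in DMSO libraries. The highest DTHIB library stayed under the lowest DMSO library. Its mean of 667 ± 41.8 in DTHIB and 792 ± 24.7 in DMSO (SD, n = 4 each) gave a log2 difference of -0.25 (SE 0.050, limma adjusted p = 0.000366), so that PCAT1 fell by 15.8%. In mean normalized count, with no correction for its 16848 bases of merged exons, PCAT1 stood at percentile 97.5 of tested lncRNA genes. Per kilobase it ranked only 5th among the measured lncRNAs followed here. In log2 fold change it stood at percentile 17.2 of tested lncRNA genes.

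DRAIC (ENSG00000245750, chromosome 15, 69463026 to 69843120, plus strand), an inhibitor of the IκB kinase complex, fell by 29.7%. The DTHIB libraries had 42.72, 50.03, 50.93 and 44.88 normalized counts, and the DMSO libraries 83.32, 61.24, 67.53 and 56.11. The groups did not overlap, but the DMSO libraries were spread, with coefficients of variation of 8.43% in DTHIB and 17.6% in DMSO. DRAIC averaged 47.1 ± 3.97 in DTHIB and 67.1 ± 11.8 in DMSO (SD, n = 4 each), a log2 difference of -0.49 (SE 0.150, limma adjusted p = 0.00912). The authors' deposited table gives DRAIC a log2 fold change of -0.46 with an adjusted p of 0.0319.

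**Figure D3:**
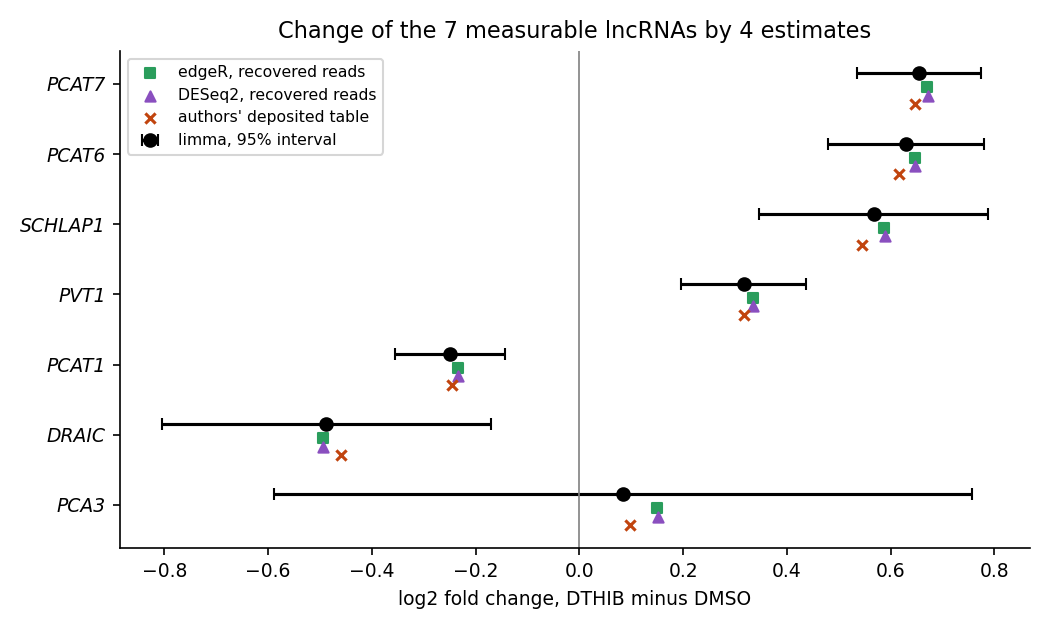
Log2 fold change (DTHIB minus DMSO) of the 7 measurable lncRNAs: limma with its 95% interval, edgeR and DESeq2 on recovered reads, and the authors' deposited table. The intervals of PCAT7, PCAT6, SCHLAP1 and PVT1 lie above 0, those of PCAT1 and DRAIC below 0, and that of PCA3 spans 0 from -0.59 to 0.76.

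PCA3 (ENSG00000225937, chromosome 9, 76691980 to 76863307, plus strand), the urine marker, was barely measurable. It had 22.92, 18.76, 7.99 and 20.95 normalized counts in DTHIB libraries, and 13.41, 18.18, 10.61 and 22.05 in DMSO libraries. The groups overlapped, and DTHIB library 3 was the lowest of all 8. The means were 17.7 ± 6.66 in DTHIB and 16.1 ± 5.07 in DMSO (SD, n = 4 each), a log2 fold change of 0.08 with a 95% interval of -0.59 to 0.76 (limma adjusted p = 0.831). A change of up to 0.76 in log2, larger than that of PCAT7, therefore lay within the interval at this depth.

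PCAT14, ARLNC1 and PCGEM1 had means under 10 and were not measurable. PCAT14 (chromosome 22), a transcript reported to be lost in aggressive tumours, had 3.126, 6.254, 5.992 and 6.982 normalized counts in DTHIB libraries and 9.577, 6.699, 4.824 and 7.014 in DMSO libraries, from 22 reads in DTHIB and 29 in DMSO. ARLNC1 (chromosome 16) had 4.168, 8.338, 1.997 and 0 in DTHIB and 1.915, 4.785, 7.718 and 6.012 in DMSO, from 14 reads in DTHIB and 21 in DMSO. PCGEM1 (chromosome 2), a prostate-specific transcript linked to androgen receptor signalling, had 0, 0, 5.992 and 0 in DTHIB and 2.873, 1.914, 0.9648 and 0 in DMSO. All 6 DTHIB reads of PCGEM1 came from 1 library. All 3 overlapped between groups, and no difference was detectable at this depth.

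At their loci, the lncRNAs and the coding genes beside them did not always move the same way. Of the 19 nearest protein-coding genes on either side of the 10 lncRNAs 16 were tested, of which 7 rose, 7 fell and 2 did not pass, with a median log2 fold change of -0.06. Both directions were also common over all tested protein-coding genes, with 29.1% higher, 40.1% lower and a median of -0.05. KDM5B, a histone H3K4 demethylase that lies 1484 bases from PCAT6, rose with it, at a mean of 3810 ± 157 in DTHIB against 2807 ± 38.8 in DMSO (log2 fold change 0.44, limma adjusted p = 3.51e-09). On the other side of PCAT6, RABIF changed by -0.19. MYC, the oncogene that lies 53099 bases from PVT1, also rose with its neighbour, at 9590 ± 517 in DTHIB and 7941 ± 135 in DMSO (log2 fold change 0.27, limma adjusted p = 2.8e-06). MYC is at the same time the nearest tested coding gene wholly downstream of the long PCAT1 model, at 316384 bases, and PCAT1 fell.

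Several genes lie inside or across the lncRNAs. PRUNE2, the gene within which PCA3 lies on the opposite strand, had 22025 ± 1510 normalized counts in DTHIB cells and 11505 ± 566 in DMSO cells and rose by 0.94 in log2 (limma adjusted p = 6.61e-12), beside a PCA3 that did not pass. PRUNE2 and PCA3 share 1060 exon bases on opposite strands, 7.48% of the PCA3 exons. LRATD2, which overlaps the start of the long PCAT1 model, rose by 0.46, while PCAT1 fell. CASC8, which overlaps the end of that model, had -0.47 (limma adjusted p = 0.0889). POU5F1B, which overlaps the same end, had 27.0 ± 2.55 in DTHIB and 9.19 ± 3.48 in DMSO. Its DMSO mean was under 10, so it reached the filter only through its DTHIB libraries. LRATD2 shares 1163 bases with PCAT1 on the opposite strand and POU5F1B 848 on the same strand. FBP2, a fructose bisphosphatase gene that shares 212 opposite-strand bases with PCAT7, had 21.1 ± 3.71 in DTHIB and 8.50 ± 1.27 in DMSO, and likewise reached the filter only through its DTHIB libraries. MFSD14B and AOPEP, the coding genes on either side of PCAT7, changed by -0.39 and -0.22. The limit on strand holds for these shared bases too. Reads from introns of an opposite-strand gene cannot be told apart either, as for PCA3, which lies wholly inside PRUNE2. PCAT6 shares no exon base with another gene.

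**Figure D4:**
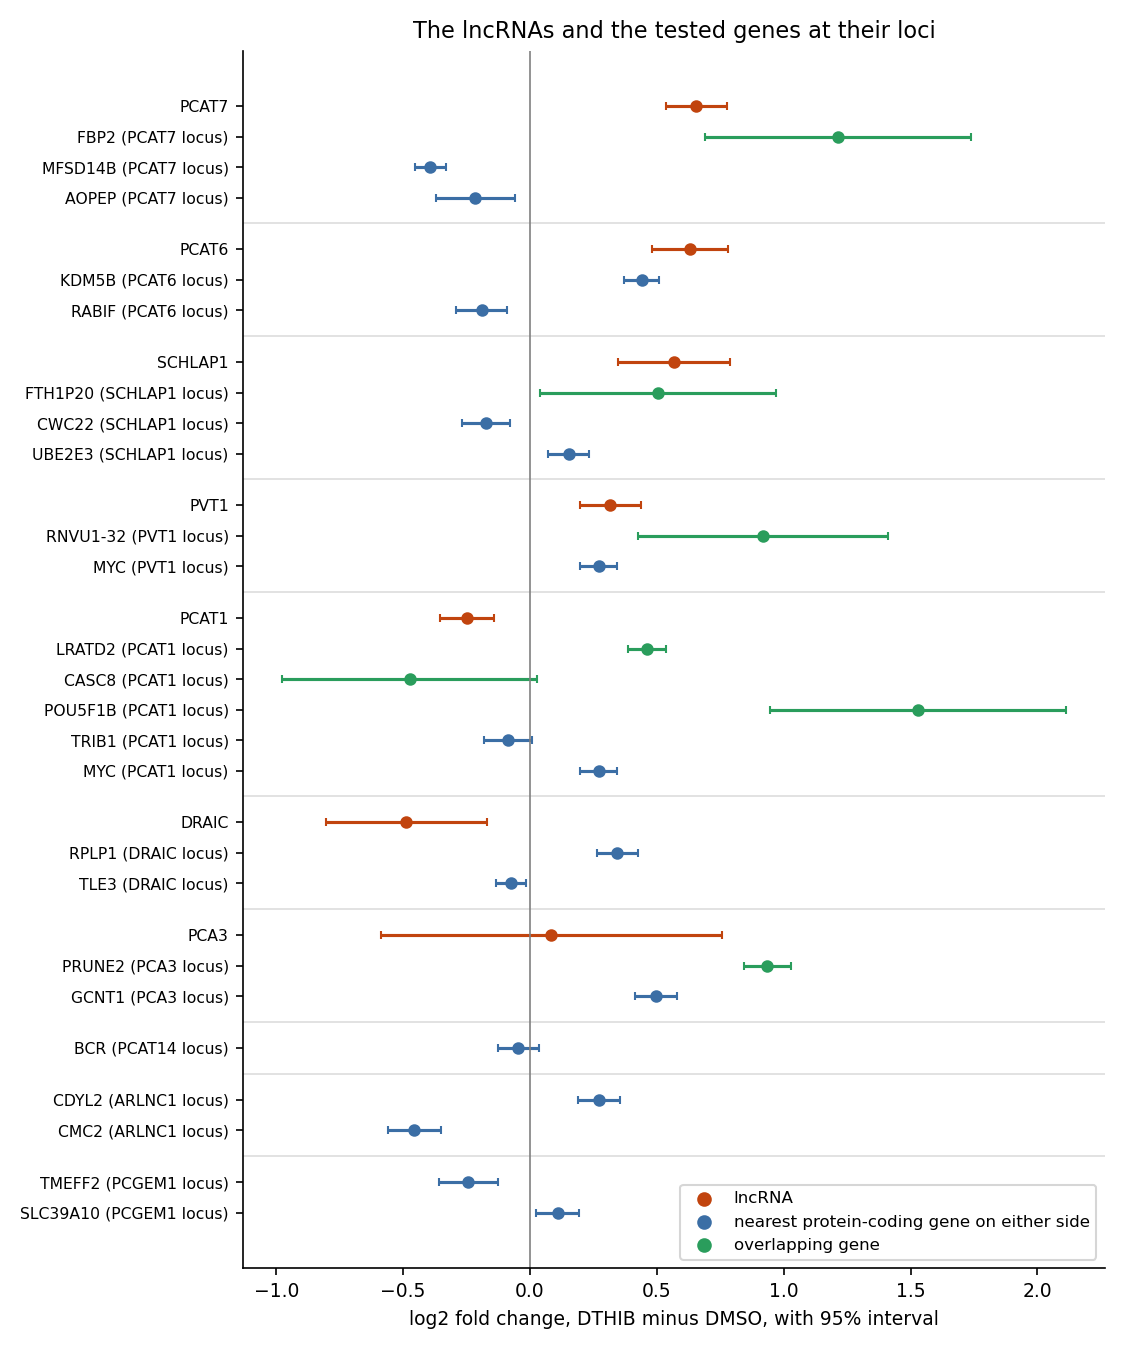
Log2 fold change (DTHIB minus DMSO) with its 95% interval for the lncRNAs and the tested genes at their loci, grouped by lncRNA. KDM5B and MYC lie on the same side of 0 as PCAT6 and PVT1, while LRATD2 lies on the other side of 0 from PCAT1; FBP2 and POU5F1B have a DMSO mean under 10.

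For the lncRNAs with a mean of at least 100 normalized counts, the 2 genes with the most similar profile over the 8 libraries were sought among 11649 genes by Euclidean distance of log2 values centred on each gene's DMSO mean, smaller being more alike. PCAT6 was closest to GRB10 (0.059) and SHMT2 (0.098), PCAT7 to WDR45 (0.082) and TCF25 (0.085), and PCAT1 to PEX3 (0.073) and APOO (0.102). PVT1 was closest to ZNF529 (0.132) and ZNF470 (0.133), and SCHLAP1 to BAIAP2-DT (0.174) and LINC00957 (0.180). The points behind each distance are 8 libraries in 2 groups, and the distances are given as descriptions.

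Other lncRNAs of prostate cancer were counted next, beside the 39.8% higher and 11.8% lower of all tested lncRNA genes. Of 18 further transcripts listed, 9 were tested, of which 4 rose, 1 fell and 4 did not pass; their log2 fold changes had a median of 0.30. The split depended on the setting: quantile normalization gave 4 higher and 3 lower, leaving out DTHIB library 2 gave 3 higher and 2 lower, and a filter at 50 gave 4 higher and 0 lower of 4 tested. CTBP1-AS, an antisense transcript that represses CTBP1 and promotes androgen signalling, had 801 ± 122 in DTHIB cells and 306 ± 24.7 in DMSO cells (log2 fold change 1.38, limma adjusted p = 4.75e-10). SOCS2-AS1 had 77.5 ± 8.05 in DTHIB and 33.0 ± 3.22 in DMSO, and TRPM2-AS had 289 ± 19.0 in DTHIB and 195 ± 19.9 in DMSO. CTBP1-AS, SOCS2-AS1 and TRPM2-AS are antisense to coding genes, so the limit on strand holds for them too. CDKN2B-AS1, known as ANRIL and the 1 counted as lower, had 5.86 ± 0.934 in DTHIB and 16.9 ± 4.23 in DMSO, so it reached the filter only through its DMSO libraries.

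Of 11 broadly expressed lncRNAs tested, 8 rose and 3 did not pass, with a median of 0.58. MALAT1, a nuclear speckle RNA, had 71509 ± 11965 in DTHIB and 26324 ± 4871 in DMSO, a log2 fold change of 1.45. NEAT1, the scaffold of paraspeckles, changed by 0.92, CRNDE by 0.64 and NORAD by 0.24. Among lncRNAs that carry small nucleolar RNAs or microRNAs in their introns, 12 of 15 tested rose and 3 did not pass, with a median of 0.53. For both lists, the share over all tested lncRNA genes was 39.8% higher and 11.8% lower, with a median of 0.28. GAS5 had 6429 ± 50.9 in DTHIB and 3363 ± 189 in DMSO, a log2 fold change of 0.94, SNHG3 rose by 0.71, SNHG7 by 0.68 and SNHG8 by 0.53. The log2 fold changes of PCAT7, PCAT6 and SCHLAP1 lay within the range of these lists. Whether the shift of the whole lncRNA class has a part in their rise was not tested.

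The androgen receptor, which controls several of the 10, had 23436 ± 1100 in DTHIB and 16366 ± 808 in DMSO (log2 fold change 0.52, limma adjusted p = 2.92e-09). Of the receptor and 8 of its lineage factors and coactivators, 5 rose, 1 fell and 3 did not pass, with a median of 0.09. The pioneer factor FOXA1 rose by 0.32, the methyltransferase KMT2D by 0.65, and HOXB13 changed by -0.22. The 20 androgen-induced coding genes were divided, with 9 higher, 8 lower and 3 not passed and a median of 0.05. Of all tested protein-coding genes, 29.1% were higher and 40.1% lower. KLK4, a kallikrein protease, rose by 1.15 and PMEPA1 by 0.72, while NDRG1 changed by -0.91 and FKBP5 by -0.61.

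Among genes of the known partners and effectors of the 10 lncRNAs, of 17 tested, 10 fell, 5 rose and 2 did not pass, with a median of -0.16. The share over all tested protein-coding genes was 40.1% lower and 29.1% higher, with a median of -0.05. BRCA2 is the repair gene that PCAT1 is known to repress. It had 794 ± 32.6 in DTHIB and 2508 ± 179 in DMSO (log2 fold change -1.66, limma adjusted p = 1.99e-14). The PCAT1 count, which may pool the transcripts of a long model, fell too. The Polycomb genes EZH2, EED and SUZ12 fell as well, EZH2 with 1427 ± 69.1 in DTHIB and 2923 ± 112 in DMSO. For the SWI/SNF complex that SCHLAP1 opposes, SMARCA4 changed by -0.14. For the IκB kinase that DRAIC binds, CHUK changed by -0.45 and IKBKB by 0.22. IGF1R, whose messenger RNA PCAT6 is known to stabilize with IGF2BP2, rose by 0.56, while IGF2BP2 changed by -0.74. UHRF1, a reader of hemimethylated DNA, changed by -1.41.

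**Figure D5:**
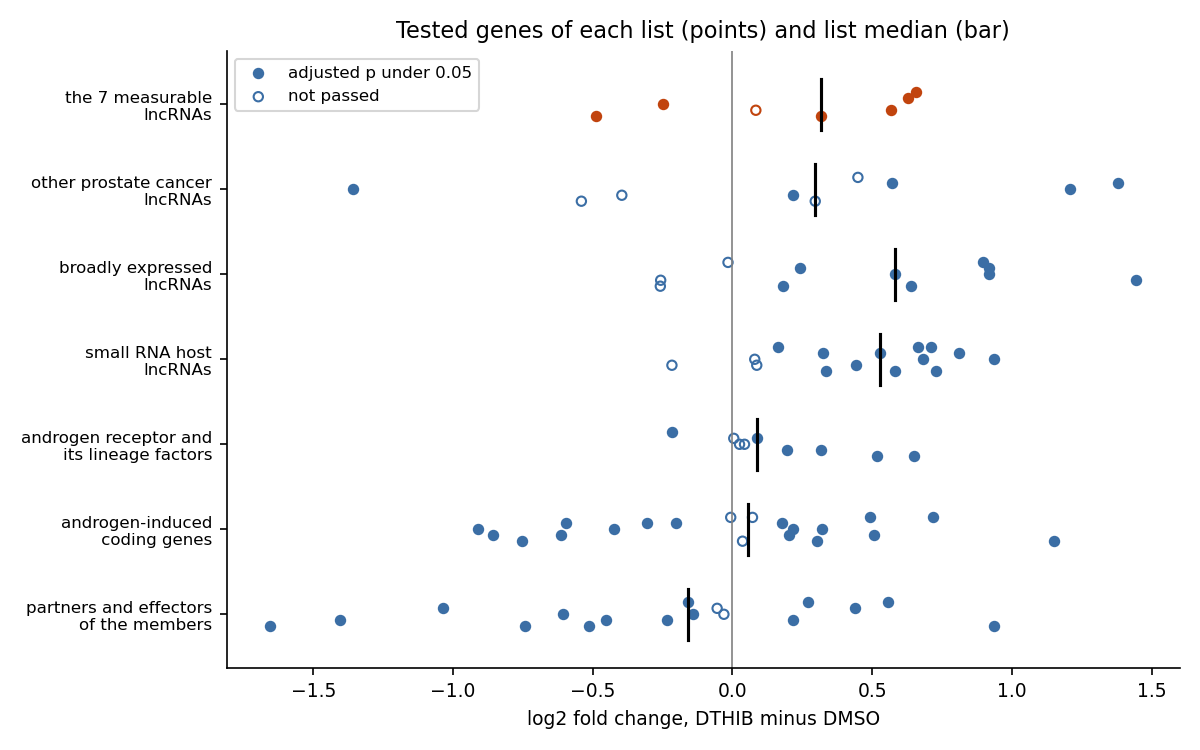
Log2 fold change (DTHIB minus DMSO) of every tested gene in the 7 measurable lncRNAs and 6 related lists; filled points have a limma adjusted p under 0.05, and a bar marks each list's median. The lncRNA lists lie mostly to the right of 0, with medians of 0.30 to 0.58, and the partners and effectors mostly to the left, with a median of -0.16. Over all tested genes of each class the median was 0.28 for lncRNA genes and -0.05 for protein-coding genes.

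The cells carried the markers of a luminal prostate line in both groups. Of 11 luminal markers 10 were tested, 7 higher and 3 lower, and their summed level ran from 263887 to 269744 normalized counts in DTHIB libraries and from 216479 to 220864 in DMSO libraries. The basal list summed to between 2538 and 2677 in DTHIB and between 2441 and 2770 in DMSO, with TP63 and KRT5 near 0. Of its 8 markers 6 were tested, 1 higher, 3 lower and 2 not passed. The neuroendocrine markers CHGA and INSM1 and the leukocyte marker PTPRC were also near 0. The neuroendocrine list summed to between 297 and 362 in DTHIB and between 358 and 455 in DMSO. The blood list summed to between 29.9 and 51.9 in DTHIB and between 41.5 and 54.6 in DMSO. Other markers of both lists were measured: 3 of 7 neuroendocrine markers were tested, 1 higher and 2 lower, and 3 of 7 blood markers, 1 lower and 2 not passed. Stromal markers summed to between 1262 and 1502 in DTHIB and between 1045 and 1157 in DMSO, mostly COL1A1, with DCN and LUM near 0; 3 of 9 were tested, 1 higher, 1 lower and 1 not passed. By comparison, 29.1% of all tested protein-coding genes were higher and 40.1% lower. The part of these marker lists in the results was not tested.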

How the data were processed

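RNA-seq libraries of C4-2 cells, 4 with DTHIB and 4 with DMSO, were grouped by labelled treatment. Per the submitters' processing notes, the build was GRCh38 and the tools were HISAT2 2.1.0, featureCounts 1.6.3, Trimmomatic 0.36.5, DESeq2 2.11.40.2 and StringTie 1.3.4. The sources used here do not give their settings, the annotation release, or how reads shared between genes were counted. The authors deposited 1 DESeq2-normalized count (a signal: reads divided by a size factor) per gene and library. A further table that the authors deposited holds, for each gene, a mean signal, a log2 fold change and its error, a Wald score, and a raw and an adjusted p-value. Its sign matched DTHIB minus DMSO in 100% of genes that differed by over 0.1 in log2.

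Whole reads were recovered, since 100% of values were whole multiples of 1 step per library within 0.01. Of 58884 identifiers, 41967 had a symbol and 58611 a position in GENCODE 29. Log2(normalized count + 1) was fitted with limma 3.58.1 in R 4.3.3 (lmFit, eBayes with an expression trend, no covariates) over genes with a mean of at least 10, and genes with an adjusted p under 0.05 were called changed. Where no tool is named, an adjusted p is limma's. Log2 fold changes use log2(value + 1) and so understate the change of low genes, while percent changes and n-fold values are ratios of mean normalized counts. The fit was also run on simulated data in which only a small part of the genes was changed. How it behaves where most genes are called, as here, was not tested. Alternatives used edgeR 4.0.16 and DESeq2 1.42.0 on the recovered reads. Chi-square statistics of reads, divided by the number of genes, ran from 51.9 to 70.0 between groups and from 2.39 to 5.19 within them and found no library deposited again under another name. Named genes are the nearest coding and the overlapping genes of the lncRNAs and, in each list, up to 4 with the smallest adjusted p; SUZ12, EED, SMARCA4, CHUK, IKBKB, IGF1R and IGF2BP2 were named in addition, after their values were seen, as were SMARCB1, ETV1 and the markers given as near 0 (TP63, KRT5, CHGA, INSM1, PTPRC, DCN and LUM). The lncRNAs and the lists were chosen with earlier results of these data known. Genes were located with GENCODE 29, and promoters come from RefSeq (GRCh38.p14).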

Additional observations from a re-analysis of the deposited data

Results flagged for a closer look

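In 30 genes at or near the 10 lncRNAs, each examined in the DTHIB and the DMSO group, 4 of 60 groups of 4 libraries held a library whose gap to its nearest neighbour was large beside the range of its group by Dixon's test; about 1 in 20 groups is marked by chance alone. None of these groups belongs to one of the 10 lncRNAs. GCNT1, beside PCA3, had 2256 normalized counts in DTHIB library 1, with the nearest other DTHIB library at 2131. LRATD2, which overlaps the PCAT1 model, had 4183 in DTHIB library 3, with the nearest at 3891. CASC8, which also overlaps the PCAT1 model, had 40.5 in DMSO library 3, with the nearest at 29.7. TLE3, beside DRAIC, had 3881 in DMSO library 2, with the nearest at 4011.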

How the results depend on the processing

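The number of the 10 lncRNAs that changed was 6 under each of 17 alternatives (pseudocounts 0.5 and 5, a filter at 50 or none, TMM scaling, quantile normalization, edgeR, DESeq2, a replicate block, and each library left out in turn), and all 118 recomputed values of the lncRNAs kept their direction or, for PCA3, stayed without a call. The log2 fold change ranged from 0.64 to 0.68 for PCAT7, 0.58 to 0.65 for PCAT6, 0.47 to 0.61 for SCHLAP1, 0.26 to 0.37 for PVT1, -0.29 to -0.18 for PCAT1 and -0.59 to -0.38 for DRAIC. DRAIC was nearest to losing its call, with an adjusted p of 0.0452 without DMSO library 1. PCA3 ranged from -0.09 to 0.40, with the highest value without DTHIB library 3. Over all genes, 11110 changed, 9483 to 11557 under the other settings and 10367 to 10893 with a library left out; the replicate block gave 11058 and 6 changed lncRNAs. Deviations of same-numbered libraries from their group means had correlations of -0.07 to 0.01 over all tested genes. Counting noise enters these values, so they cannot settle whether equal numbers mark a shared culture or batch. No scaling moved the median of all genes by over 0.1 in log2. Among the related lists, quantile normalization moved the counts of broadly expressed lncRNAs to 8 higher and 2 lower and of small RNA hosts to 14 higher and 1 lower. It also gave 7 higher and 1 lower for the androgen receptor and its lineage factors, and 5 higher and 8 lower for the partners and effectors. With a library left out, 5 to 6 of the receptor list changed. Depth limits PCA3 and the 3 lncRNAs under 10.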

Other observations

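A pair of genes of prostate cancer biology had very low counts in both groups. SMARCB1, the SWI/SNF subunit that SCHLAP1 is known to bind, had 1.01 ± 0.815 normalized counts in DTHIB libraries and 0.720 ± 0.918 in DMSO libraries (SD, n = 4 each), while SMARCA4 of the same complex had 6001 ± 256 in DTHIB and 6618 ± 82.3 in DMSO. SMARCB1 is among 2050 symbols that GENCODE 29 also places outside the primary assembly, and none of the 10 lncRNAs is. Whether reads of SMARCB1 were lost between these copies was not tested, so its low count does not show that it is unexpressed. ETV1, an ETS factor of luminal tumours, had 2.03 ± 0.797 in DTHIB and 4.61 ± 1.98 in DMSO.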
